A study of Schizosaccharomyces pombe with 6 samples.

Results

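The 24 genes described here are protein-coding genes of Schizosaccharomyces pombe, the fission yeast, with almost no Argonaute-associated small RNA counted in growing cells. In summed reads, these genes had more after a day without nitrogen. They were chosen from 5129 rows with chromosomal gene IDs, out of 6878 rows in all, by raw read counts: at most 4 reads summed over the 3 libraries of growing cells (0h) and at least 100 summed over the 3 libraries taken 24 h after nitrogen removal (24h). In all, 41 rows met both limits, and 17 of them were left out by name or by cosmid. An NCBI RefSeq annotation typed 24 of the 24 as protein-coding, with 9 on chromosome I, 6 on chromosome II and 9 on chromosome III. Because the difference between 0h and 24h chose the genes, its size is given below as a description, and no test of it supports anything.

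All 6 libraries came from the wild-type strain 975 h+, which carries the plus mating type. The labels gave no allele of Ago1 with a tag. The cells were grown at 32 °C in EMM, a minimal medium, supplemented with adenine, histidine, leucine, lysine and uracil. The 0h group was the growing control, and the 24h group had been moved into EMM without nitrogen. Ago1 was pulled down with anti-FLAG magnetic beads, and the RNA sequenced was that running at 20 to 30 nucleotides on a gel. Nothing in the labels said whether replicates were separate cultures, so the spread between them may be technical.

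Argonaute proteins hold a small guide RNA and use it to find matching transcripts. In fission yeast Ago1 is best known for the small RNAs of centromeric repeats, which lead the histone methyltransferase Clr4 to chromatin and silence it there. Nitrogen loss makes h+ cells stop dividing, prepare to mate and, without a partner, enter quiescence. A small RNA count over a gene is neither a measure of its mRNA nor of its protein, and "nearly silent" here means only that few reads could be placed on it.

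The assigned reads per library ran from 48040 to 145861 at 0h and from 54393 to 758789 at 24h. Of the aligned reads, 90.3 to 96.4% had been set aside by the authors' counting for low mapping quality. The 24h replicate 3 library stood apart in depth, with 71.4% of all assigned 24h reads, and it also stood apart over many of the 24 genes. Levels are given as raw reads and as CPM, the usual scaling of assigned reads to a common library size. Unless said otherwise, CPM values were adjusted by TMM, edgeR's factor that puts the typical feature at no change.

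The 24 genes together held 8, 19 and 26 reads in 0h replicates 1, 2 and 3, and 136, 759 and 4499 reads in the 24h replicates. As shares of assigned reads these were 0.0167%, 0.0169% and 0.0178% at 0h, and 0.250%, 0.304% and 0.593% at 24h. The 0h libraries lay close together, and the 24h libraries did not, with replicate 3 well above the others. As CPM of aligned reads, however, the 24h values were 83.1, 164 and 134, so replicate 3 was the highest by assigned reads and not by aligned reads. In a pooled culture, fewer cells carrying an RNA and less of it per cell cannot be told apart.

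A comparison at nearly equal numbers of assigned reads leaves out 24h replicate 3. The 24h replicates 1 and 2 together held 304379 assigned reads, against 306479 in the 3 libraries at 0h. The 24 genes had 895 reads in the former and 53 in the latter, a 17.0-fold higher share. Aligned reads were not matched, at 6273358 against 56428322, and per aligned read the ratio was 152. Each of the 24 had more reads in those 2 libraries than in the whole 0h group, from 2 reads for min8 to 85 for SPCPB16A4.06c. The choice used these same libraries and capped the reads at 0h, so these values describe the 24 and test nothing. None of the 24 would reach 100 reads without replicate 3. That follows in part from depth, since replicate 3 held 71.4% of assigned 24h reads. dad5, SPCC737.04, grn1 and psk1 fell short too, though their TMM-scaled level was lower in replicate 3 than in replicates 1 and 2 pooled. Leaving it out lowered the pooled ratio or bound by over 1.5 times for 13 of the 24, left 10 within 1.5 times and gave none for min8.

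**Figure D1:**
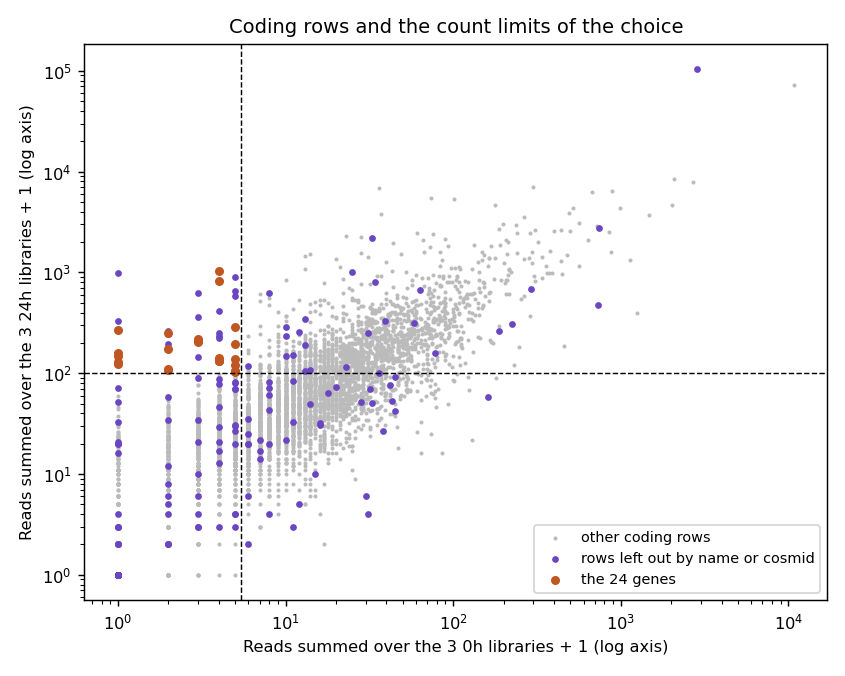
Reads summed over the 0h libraries (x axis) against reads summed over the 24h libraries (y axis) for each protein-coding row, both plus 1 on log axes, with dashed lines at the count limits. The 24 genes lie in the upper left with 102 to 1029 reads at 24h, among the rows that were left out by name or cosmid.

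The members just inside the limits were SPCC16A11.15c with 102 reads at 24h and tam13 and utp3 with 104 each, all from 4 reads at 0h. Just outside on the 24h side stood 12 rows with 80 to 99 reads. The nearest were rgs1, a regulator of pheromone signalling, and fub2, a proteasome regulator, with 97 reads each. They were followed by gyp10, a GTPase-activating protein, with 92 and by 3 rows with 91, among them the purine transporter SPAC29B12.14c. On the 0h side 21 rows had 5 or 6 reads, among them the protein kinase C gene pck1 (5 reads at 0h, 103 at 24h), the RNA helicase gene ddx27 (5 and 115), the uricase gene uro1 (5 and 107) and the rRNA processing gene enp2 (5 and 117). Genes on either side of a limit had similar counts, so the edge of the group is a convention.

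Only 11 of the 24 had enough reads in enough libraries to enter the test across all features. Their median log2 fold change was 3.33, beside -0.02 over all tested features. It ran from 2.49 for SPBC36.02c to 5.40 for SPCPB16A4.06c, leaving out prl65 and hsp3105, which had no 0h read and so no fitted size, and the median was 3.33 also with these 2 at their lower bounds. All 11 had an adjusted p below 0.05 (edgeR's quasi-likelihood test, Benjamini-Hochberg), between 0.00261 and 0.0194, where 13.1% of 1716 tested features were called higher at 24h. Since the same counts chose the genes, nothing is read from that difference. The other 13 did not pass the filter on low counts. Every 24h library lay above every 0h library for 19 of the 24, including all 11 tested. The share over all tested features was 24.3%, and the choice by these counts bears on this too. The 5 with overlap were SPAC4F10.17, SPBC3H7.08c, min8, utp3 and SPCC16A11.15c.

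**Figure D2:**
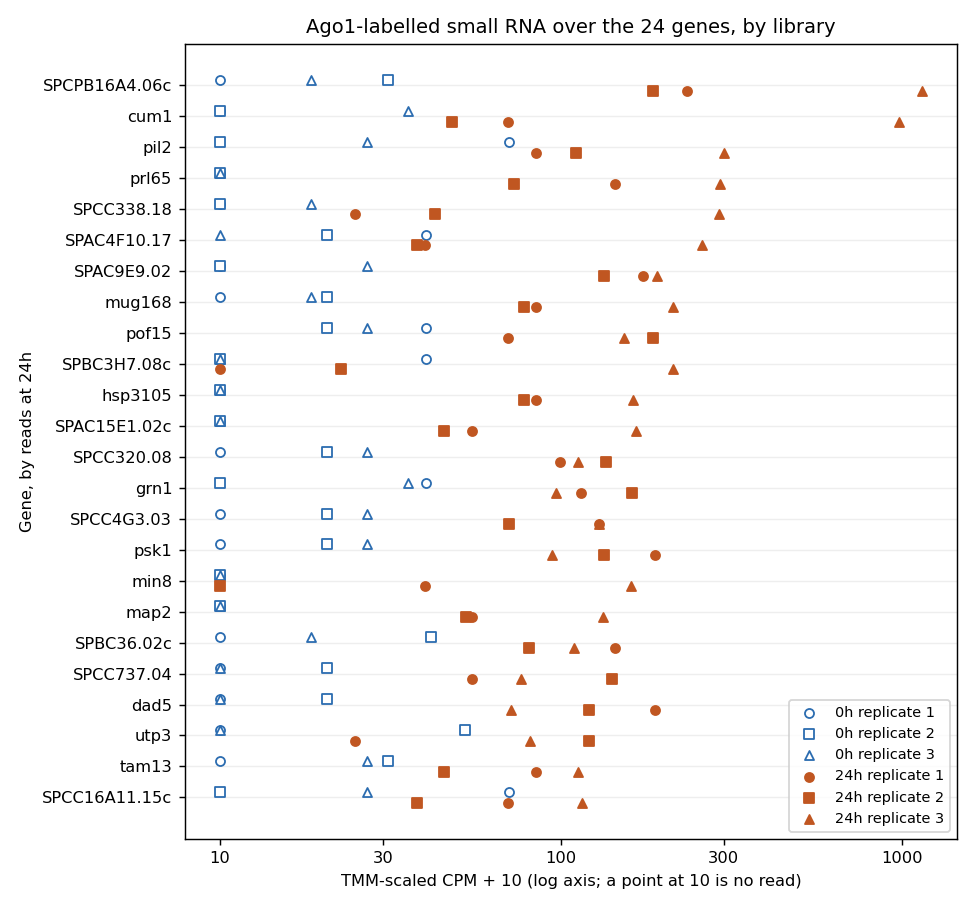
TMM-scaled CPM plus 10 on a log axis for each of the 24 genes, ordered by reads at 24h, with open symbols for the 0h libraries and filled symbols for the 24h libraries. Each symbol is 1 library, a point at 10 has no read, and the 24h replicate 3 triangles of SPCPB16A4.06c and cum1 lie far to the right of the other libraries.

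Uncharacterised genes led the group. SPCPB16A4.06c, on chromosome III, had 0, 2 and 1 reads in the 0h libraries and 15, 70 and 944 in the 24h libraries. Its level was 224, 176 and 1138 CPM at 24h against at most 21.1 CPM at 0h. The groups did not overlap, and replicate 3 was far above the other 24h libraries. The pooled ratio between groups was 65.0 (exact 95% counting interval 22.2 to 316), and the fitted log2 change was 5.40 (SE 1.00), which was 3.84 without 24h replicate 3.

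The cum1 gene (SPAC22G7.11c), on chromosome I, had 0, 0 and 3 reads at 0h and 4, 15 and 804 at 24h, or 59.7, 37.8 and 969 CPM. The pooled ratio was 52.0 (17.7 to 253), but 97.7% of its 24h reads lay in replicate 3, and the ratio was 3.35 without it. The closest protein relative of cum1 in the annotation was SPAC869.09, a Con-6 family protein, with 38.8% identity over 139 aligned residues. Con-6 is the name of a conidiation protein first described in the mould Neurospora. SPAC869.09 was among the rows left out by cosmid, and it had 0, 0 and 0 reads at 0h and 3, 12 and 976 at 24h. Both relatives were thus nearly empty at 0h and concentrated in the same 24h library. The annotated cum1 gene overlaps iss1 on the opposite strand over 745 of its 940 bases, and iss1 had 13 reads at 0h and 6, 14 and 25 at 24h.

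Of 5 genes without any read at 0h, prl65 (SPAC19A8.16) had the most at 24h. It had 9, 25 and 235 reads, or 134, 62.9 and 283 CPM, at least 17.0-fold above a floor of 3 counts over the 0h group, or 5.99-fold without 24h replicate 3. Its predicted protein has 65 residues, the shortest of the 24. SPAC15E1.02c had 3, 14 and 129 reads at 24h, at least 9.23-fold above the floor, or 2.99-fold without 24h replicate 3. The min8 gene had 2, 0 and 125 reads, at least 8.03-fold above the floor when pooled, but its 2 reads without 24h replicate 3 lay under the floor. Most of min8, 1439 of 1601 bases, overlaps SPAC1B3.01c on the opposite strand, which had 26 reads at 0h and 2, 26 and 62 at 24h. The opposite-strand gene thus had reads in all 6 libraries and min8 in 2 of them.

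Of the other uncharacterised genes, SPCC338.18 had 0, 0 and 1 reads at 0h and 1, 13 and 233 at 24h. SPAC4F10.17 had 1, 1 and 0 reads at 0h and 2, 11 and 207 at 24h. SPBC3H7.08c had 1, 0 and 0 reads at 0h and 0, 5 and 169 at 24h. In 24h replicate 3 these 3 genes held 281, 250 and 204 CPM. In 24h replicates 1 and 2 SPCC338.18 held 14.9 and 32.7 CPM, above its 0h maximum of 8.52, while SPAC4F10.17 and SPBC3H7.08c did not exceed their 0h maximum of 30.1. However, 14.9 CPM in 24h replicate 1, 8.52 in 0h replicate 3 and 30.1 in 0h replicate 1 are each 1 read. The 3 genes are thus not told apart by this. Without 24h replicate 3 the pooled ratios of the 3 genes were 7.40, 3.43 and 2.64, in place of 46.8, 20.9 and 33.0. SPAC9E9.02 differed from them, with 0, 0 and 2 reads at 0h and 11, 49 and 150 at 24h. Its level was 164, 123 and 181 CPM in the 24h libraries, 156 ± 29.6 CPM (SD, n = 3), and at most 17.0 CPM at 0h. The level was thus alike in the 24h libraries, with a pooled ratio of 19.9 (5.44 to 165). SPCC737.04 and SPCC16A11.15c had 110 and 102 reads at 24h, and without 24h replicate 3 the pooled ratio of the latter was 1.98 in place of 4.84. The closest relative of SPCC737.04, mug132, with 28.1% identity, had 1 read at 0h and 11 at 24h.

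Genes of mating and meiosis made a small part of the group. map2 encodes the precursor of P-factor, the pheromone that h+ cells secrete to attract the opposite mating type. It had no read at 0h and 3, 17 and 102 at 24h, or 44.8, 42.8 and 123 CPM, at least 7.71-fold above the floor, or 3.52-fold without 24h replicate 3. All 24h libraries lay above all 0h libraries. Of its 20-base stretches, 30.8% occur more than once in the RefSeq genome, all of them within the gene itself, where the pheromone sequence is repeated. Reads from those stretches have several equal placements, and whether that lowered the count of map2 was not tested. mug168, named for a rise in meiosis, had 0, 1 and 1 reads at 0h and 5, 27 and 169 at 24h, a pooled ratio of 19.1 (5.21 to 158), which was 8.46 without 24h replicate 3. tam13, named for a transcript altered in meiosis, had 104 reads at 24h and 4 at 0h, a ratio of 4.93, or 2.51 without 24h replicate 3.

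The M-factor genes, which belong to the opposite mating type, were at or near 0. mfm3 had no read in any library, and mfm1 and mfm2 had 4 and 7 reads, all in 24h replicate 3. For mfm1 and mfm3, 20.3% and 24.5% of the 20-base stretches occur more than once in the genome, and the part of this in their counts was not tested. map1, an activator of plus-type genes, had no read at 0h and 1, 6 and 16 at 24h. Other genes of the plus type were not empty at 0h. map3 and map4 had 5 and 6 reads there, and each had 1, 13 and 30 at 24h. mam2, the P-factor receptor of the opposite mating type, had 3 reads at 0h and 0, 0 and 2 at 24h. Other genes of the minus type had reads, however. mam1, the M-factor exporter, had 2, 6 and 6 reads at 0h and 5, 30 and 29 at 24h. mam3 had 4 reads at 0h and 0, 9 and 15 at 24h. The reads thus did not divide cleanly by mating type.

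In a list of 28 genes of sexual differentiation, 1 was among the 24, and 14 had at most 4 reads at 0h. Of 6 tested, 3 rose and 0 fell (edgeR, adjusted p below 0.05). They were ste11, the transcription factor that starts differentiation (4.21, SE 0.45), mei2, which starts meiosis (4.53, SE 0.49), and spk1, the kinase of the pheromone pathway (2.38, SE 0.57). The call of spk1 was lost without 0h replicate 2 (adjusted p = 0.0635, edgeR). With library totals 5 of the 6 rose, where 568 of all 1716 tested features did. Per aligned read 6 rose, where 1611 of 1716 did, so that count does not set the list apart. Few other genes of the lists used here belonged to the 24. Among all tested features 13.1% were called higher and 12.8% lower. The list of 31 stress and chaperone genes held 1, hsp3105, and 11 of its 24 tested genes rose and 0 fell. The 11 include hsp3105 itself, which this same contrast had chosen. Leaving out 0h replicate 1 gave 6 rises in place of 11, and leaving out either 0h replicate 2 or 24h replicate 3 gave 5. Leaving out 24h replicate 2 gave 13. The calls over all tested features changed too, from 224 of 1716. In the same order they were 200 of 2285, 110 of 2263, 196 of 1844 and 204 of 1663. Lists of nitrogen compound transport (9 of 13 tested rose, 1 fell), carbon metabolism (10 of 25 rose, 0 fell), cell wall and surface (3 of 16 rose, 4 fell) and autophagy (1 of 5 rose, 0 fell) held none of the 24. Without 0h replicate 2, where 110 of 2263 tested features were called higher, the rises were 3 in carbon metabolism and 1 in the cell wall list. The call of atg1, the 1 autophagy rise, was lost when any of the 6 libraries was left out. These lists were chosen with results of these data known and are no independent support. All these counts are relative to the typical feature, and per aligned read 0 genes of the lists fell.

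Metabolic and membrane genes came next. hsp3105 (SPAC1F7.06) encodes a ThiJ family glyoxalase, an enzyme type that detoxifies methylglyoxal. It had no read at 0h and 5, 27 and 127 at 24h, or 74.7, 68.0 and 153 CPM, at least 10.0-fold above the floor, or 5.64-fold without 24h replicate 3. The noncoding SPNCRNA.243 overlaps it on the same strand over 746 of 1708 bases and had 9 reads at 0h and 10 at 24h. Its relatives in the same family were mostly low as well. hsp3102, hsp3103 and hsp3104 had 1, 2 and 3 reads at 0h and 11, 20 and 20 at 24h. hsp3101, the closest relative with 33.2% protein identity, went from 7 to 479 reads, a log2 change of 3.27 (SE 0.91, adjusted p = 0.0228, edgeR). That call was lost without either of 0h replicates 1 and 2 or either of 24h replicates 1 and 3 (adjusted p between 0.0595 and 0.15), and the change was 1.73 without 24h replicate 3.

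pil2 encodes a BAR domain protein of eisosomes, the furrows of the plasma membrane. It had 2, 0 and 2 reads at 0h and 5, 40 and 241 at 24h, or 74.7, 101 and 291 CPM, against up to 60.2 CPM at 0h. The lowest 24h library was thus near the highest 0h library, and the log2 change of 3.33 (SE 0.87) was 2.40 without 24h replicate 3. Its closest relative pil1, the main eisosome protein, with 55.3% identity, had reads at both times, 198 at 0h and 2991 at 24h. The log2 change of pil1 was 1.69 (SE 0.42, adjusted p = 0.0147, edgeR), a call lost without 0h replicate 2 (adjusted p = 0.104).

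Both transporters of the group were even across the 24h libraries. SPCC320.08, annotated as a transporter, had 0, 1 and 2 reads at 0h and 6, 50 and 85 at 24h, or 89.6, 126 and 102 CPM at 24h. SPBC36.02c, of the spermidine transporter family, had 4 reads at 0h and 119 at 24h, with 134, 70.5 and 98.9 CPM at 24h. Its log2 change of 2.49 was 3.74 without 0h replicate 2. Its near copy SPCC569.05c, with 83.7% identity over 576 residues, had 20 and 151 reads and did not pass (0.56, SE 0.43, adjusted p = 0.365, edgeR). Of the 20-base stretches of SPBC36.02c, 3.26% occur more than once in the genome as exact matches. Whether near matches to SPCC569.05c affected the placing of reads was not tested.

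Regulators and growth genes followed. psk1 encodes a kinase of the S6K family, which acts below the nutrient sensor TORC1. It had 0, 1 and 2 reads at 0h and 12, 49 and 70 at 24h, or 179, 123 and 84.4 CPM, and every 24h library lay above every 0h library. Its closest relative, the AGC kinase gene gad8, had 3, 16 and 26 reads at 0h and 17, 52 and 143 at 24h and did not pass (log2 change 0.01, SE 0.40, adjusted p = 0.984, edgeR). pof15, an F-box protein gene, had 1, 1 and 2 reads at 0h and 4, 70 and 119 at 24h, and F-box proteins select targets for ubiquitination. SPCC4G3.03, a WD40 repeat protein gene on the same cosmid as psk1 but not next to it, had 0, 1 and 2 reads at 0h and 8, 24 and 99 at 24h.

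grn1, a GTPase gene of ribosome assembly, had 1, 0 and 3 reads at 0h and 7, 60 and 72 at 24h. Its level was 105, 151 and 86.8 CPM at 24h, and the log2 change of 2.77 (SE 0.68) became 2.08 when 0h replicate 2 was left out and 3.69 when 0h replicate 3 was. Its relative nog2, a GTPase gene of ribosome export, rose by 2.00 (SE 0.38, adjusted p = 0.00471, edgeR), from 26 to 509 reads. utp3, which acts with the U3 snoRNP in ribosomal RNA processing, had 104 reads at 24h, and its 4 reads at 0h all lay in replicate 2. dad5, a subunit of the DASH complex that couples kinetochores to microtubules, had 107 reads at 24h and 1 at 0h.

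The genes differed in how their reads fell among the 24h libraries. The level in 24h replicate 3 was compared with that in replicates 1 and 2 pooled, scaled by TMM. The ratio ran from 0.510 for dad5 to 35.0 for min8, with a median of 2.68. It was above 2 for 14 of the 24 and above 5 for 6, which were min8, cum1, SPBC3H7.08c, SPCC338.18, SPAC4F10.17 and SPCPB16A4.06c. Among 1349 other coding rows with 100 to 1029 reads at 24h, the median was 0.982, and 7.78% were above 2 and 1.63% above 5. The choice by summed raw reads favours genes that are high in the deepest library, so this is a description of the 24 and no test of them. Another scaling multiplies the ratio of every gene alike. By library totals the medians were 1.92 for the 24 and 0.704 for the other rows, and by aligned reads 0.895 and 0.328.

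At the other end, the counting interval of 4 genes lay below 1, or of 7 by library totals and 10 by aligned reads. With TMM they were dad5 (ratio 0.510, 95% counting interval 0.342 to 0.758), SPCC737.04 (0.560, 0.378 to 0.828), grn1 (0.601, 0.425 to 0.852) and psk1 (0.642, 0.449 to 0.921). The interval lay above 1 for 16 genes, or for 14 by library totals and 6 by aligned reads, among them cum1 (23.7, 15.1 to 39.5) and SPCPB16A4.06c (6.22, 4.97 to 7.85). hsp3101 (5.98) and SPAC869.09 (36.4), relatives of 2 of the 24, were high in replicate 3 too, whereas nog2 (0.613) and pil1 (0.765) were not. What sets 24h replicate 3 apart besides its depth was not tested.

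**Figure D3:**
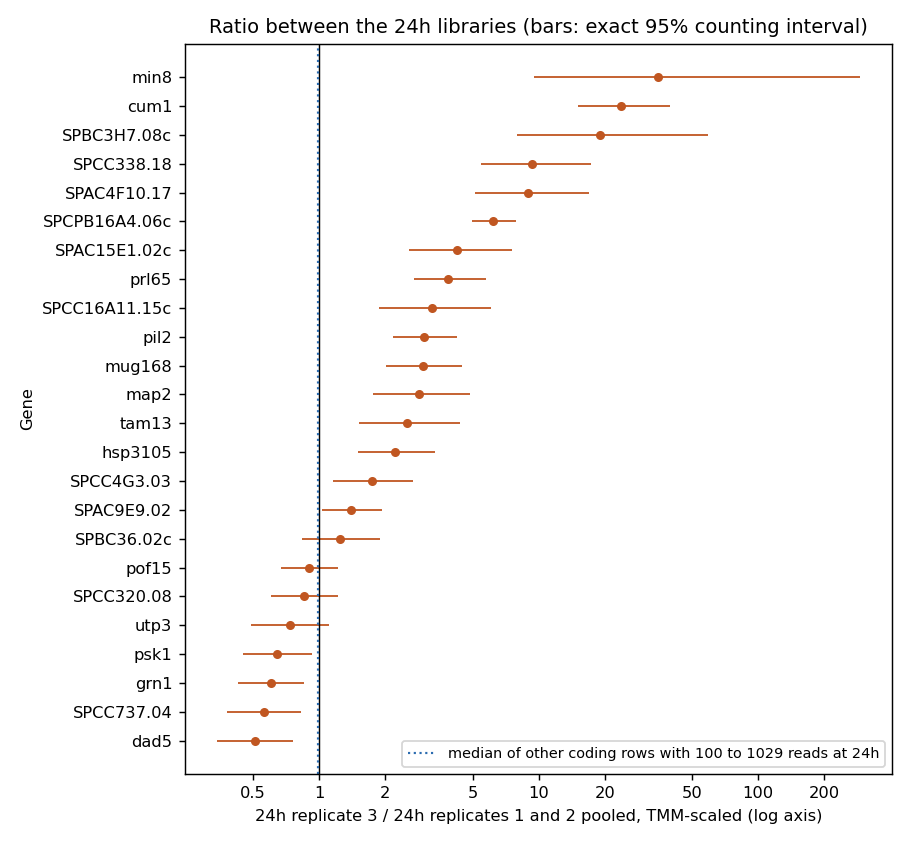
Ratio of the level in 24h replicate 3 to that in 24h replicates 1 and 2 pooled, TMM-scaled on a log axis, with exact 95% counting intervals, for each of the 24 genes. The genes spread from 0.510 to 35.0 around a dotted line at 0.982, the median of 1349 other coding rows with like read numbers.

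Many of the 24 genes were short, but not all, with utp3 and SPBC36.02c reaching 597 and 577 residues. The proteins of the 24 had a median of 144 residues, against 379 over 5103 coding genes, and the median gene length was 1267 against 1774 bases. Proteins of 150 residues or fewer made up 13 of the 24 (54.2%), a limit chosen after the lengths were seen. The same share was 9.41% of the 1349 other coding rows with like read numbers at 24h and 26.0% of 1386 other coding rows with at most 4 reads at 0h. Short proteins were thus also commoner among the other rows that met the 0h limit. Of the 13 short proteins 11 had a ratio above 2, and of the 11 longer ones 3 did (pil2, hsp3105 and map2). The short exceptions were SPAC9E9.02 and dad5. Over all tested coding genes the shares above 2 were 13.4% of 149 short and 8.18% of 1454 longer proteins. Per kilobase of gene, the mean level at 24h ran from 34.4 CPM for utp3 to 647 CPM for SPCPB16A4.06c.

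**Figure D4:**
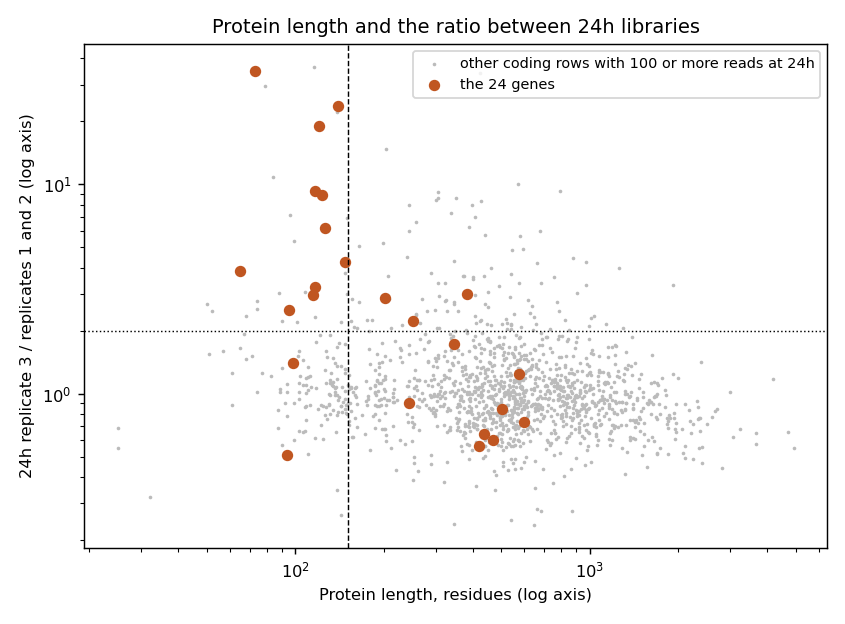
Protein length in residues (x axis) against the ratio of 24h replicate 3 to replicates 1 and 2 (y axis), both on log axes, for the 24 genes and for other coding rows with at least 100 reads at 24h. The dashed line marks 150 residues and the dotted line a ratio of 2, and 11 of the 24 genes lie to the upper left of both.

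The genes stood singly on the chromosomes. No pair of the 24 was adjacent among coding genes, and 48 other coding genes flanked them. Of these 48, 13 had enough reads to be tested, 4 rose and 1 fell (edgeR, adjusted p below 0.05), against 13.1% of all tested features called higher and 12.8% called lower. The 13 neighbours had a median log2 change of 0.04, beside -0.02 over all features. The rises made up 30.8% of the tested neighbours. Leaving out each library in turn gave 3 to 5 rises among 11 to 19 tested neighbours. Over all features it gave 110 to 204 higher calls among 1663 to 2285 tested. With library totals 5 of the 13 neighbours rose, where 568 of all 1716 tested features did.

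Named neighbours that rose included other regulators. sfp1, a transcription factor gene beside SPAC9E9.02, rose by 3.04 (SE 0.41, adjusted p = 0.00125, edgeR), from 4, 10 and 7 to 57, 314 and 494 reads. The genes lie on the same strand and overlap by 36 bases. gaf1, a GATA transcription factor gene beside dad5, rose by 2.51 (SE 0.35, adjusted p = 0.00151, edgeR), from 2, 10 and 9 to 33, 194 and 391 reads. gaf1 and dad5 lie on the same strand with 253 bases between them. The 24h libraries were even for gaf1, at 493, 488 and 471 CPM, but not for dad5, at 179, 111 and 61.5 CPM.

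mug147, beside tam13, rose by 2.26 (SE 0.52, adjusted p = 0.0104, edgeR), a call lost without 0h replicate 2 (adjusted p = 0.0539). SPAC4F10.16c, divergent from SPAC4F10.17 with 57 bases between them, rose by 1.79 (SE 0.45, adjusted p = 0.0151, edgeR), lost without 0h replicate 3 (adjusted p = 0.0925). It had a replicate 3 ratio of 0.603, while that of SPAC4F10.17 was 8.91. cdc22, a ribonucleotide reductase gene beside hsp3105, fell by 1.18 (SE 0.33, adjusted p = 0.0218, edgeR), but was 2.52 higher per aligned read. Its call was lost without 0h replicate 2 or either of 24h replicates 1 and 3 (adjusted p between 0.064 and 0.0848). rad55, beside pil2, had too few reads to test, with none at 0h and 25 at 24h.

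**Figure D5:**
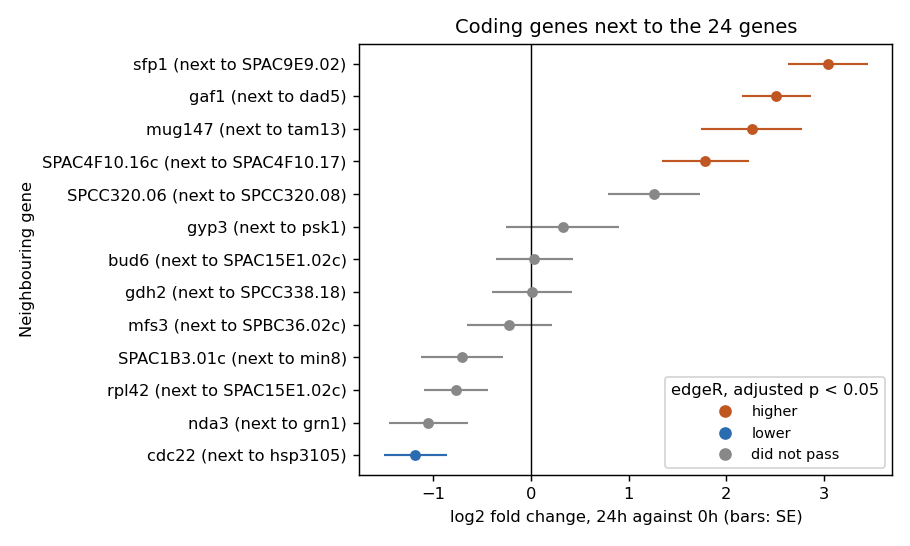
Log2 fold change at 24h against 0h, with SE bars, for the 13 tested coding genes that flank the 24 genes, coloured by the outcome of edgeR's test. The 4 rises, from 1.79 to 3.04, and the fall of cdc22 at -1.18 stand on either side of 8 genes that did not pass.

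Windows from 250 bases before to 50 bases after each RefSeq gene start were searched on both strands for 4 motifs. TGACGT, the core of sites for the stress factor Atf1, was in 2 of 24 windows (SPAC15E1.02c and SPAC9E9.02), beside 5.92% of 5102 coding gene windows. GATAAG, bound by GATA factors, was in 2 of 24 (map2 and tam13), beside 11.6%. TTCTTTG, the core of the Ste11 site, and CCCCTC, a stress element, were in 0 of 24, beside 9.96% and 2.12%. A match is a string of letters and not a bound site, and its absence from these windows says nothing of the factor. Outside map2 no gene of the 24 had more than 3.26% of its 20-base stretches repeated in the genome.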

How the data were processed

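The authors deposited raw read counts per annotated transcript for each library, with 5 HTSeq tally lines. Per the submitters' processing notes, cutadapt, Bowtie2 2.1.0, HTSeq 0.6.1 and the build ASM294v2 were used. No options are given in these sources. Reads were counted with strand, since 492 of 577 features nested in another on the opposite strand had counts. Which strand was taken as a gene's own is not given. The tally lines, of which low-quality reads were 90.3 to 96.4% of aligned reads, stayed out of library totals.

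Names, types and neighbours came from RefSeq for ASM294v3, which matched 6721 of 6878 IDs. As the builds differ, no coordinates or sequences are printed. The members, gene lists and tests were chosen with earlier results of these data known.

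All features were fitted together with edgeR 4.0.16 in R 4.3.3 (TMM, filterByExpr with a minimum count of 10, robust quasi-likelihood fit on group, two-sided, Benjamini-Hochberg, threshold 0.05). SE is the log2 change divided by the square root of F. For a gene with no 0h read the fold is a lower bound, from 3 counts summed over the 0h libraries. Other pooled ratios have exact 95% intervals. Without molecular identifiers, both cover counting error only. Relatives came from blastp (BLAST 2.17.0, E-value limit 1e-05) on translated RefSeq coding sequences. The fit was tested on simulated counts. Alternatives were DESeq2 1.42.0, library totals, aligned reads, no filter, a minimum count of 30, a replicate block and leaving out each library. Genes were named by a written rule: every member once, with counts per library for those without a 0h read and the 16 with most 24h reads, plus closest relatives, called neighbours and rows nearest the limits. The comparisons of pooled reads without 24h replicate 3, the other scalings of its ratio and the limit of 150 residues were chosen after seeing the data. The genes atg1, mam1 to mam3, map1, map3, map4, mfm1 to mfm3, rad55 and the hsp31 family were named after their values were seen.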

Additional observations from a re-analysis of the deposited data

How the results depend on the processing

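The number of the 24 genes called higher was 11 of 11 tested in the fit reported, and again with DESeq2, totals, aligned reads or the replicate block. Of all 1716 tested features, 224 were called higher in the fit reported, 252 with DESeq2 and 279 with the replicate block. It was 568 with totals and 1611 per aligned read, where nearly every feature was called. With no filter on low counts 24 were tested and 21 called, beside 479 of 6207 features. With a minimum count of 30 only SPCPB16A4.06c could be tested, so 1 was called, beside 100 of 543 features. Leaving out each library in turn gave 11 to 14 calls among 12 to 18 members tested, beside 110 to 204 calls over all tested features. Calls were lost for pil2 (adjusted p = 0.0809 without 0h replicate 2 and 0.0835 without 0h replicate 3), grn1 (0.0571 without 0h replicate 2 and 0.062 without 24h replicate 2), SPCC4G3.03 (0.0531 without 0h replicate 2) and SPBC36.02c (0.108 without 0h replicate 3), all in edgeR. The median log2 change of the tested members was 3.33 as reported, 3.26 to 3.68 without each library, 6.79 per aligned read, 4.34 with no filter and 5.23 for the 1 gene tested at a minimum count of 30. Over all tested features the median was -0.02 with TMM, 0.69 with totals and 3.55 per aligned read.

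The number of neighbouring genes called higher was 4 of 13 as reported, beside 224 of 1716 features. It was 2 of 4 tested with a minimum count of 30, beside 100 of 543 features. With library totals it was 5 of 13, beside 568 of 1716, and with no filter 6 of 48, beside 479 of 6207. Per aligned read it was 13 of 13, where 1611 of all 1716 tested features were called. Their median was 0.73 with library totals, 3.60 per aligned read and 0.95 with a minimum count of 30, and -0.10 to 0.51 without each library. With the replicate block 11 members and 5 neighbours were called. Deviations of same-numbered libraries from their group means correlated at 0.07, 0.16 and 0.18 over 1716 features, so the numbers were not taken as pairing, although each 0h library correlated best with its own number. Of 122 values of single members under the alternatives, 99 moved by less than their SE and 23 by more, and none changed sign. Depth limits the 0h side most, where 3 reads were 20.6 to 62.4 CPM of assigned reads.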
